A study of Homo sapiens with 12 samples.

Results

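The peaks described here are the NONO eCLIP peaks that the authors' annotation places in introns of protein-coding genes within 500 nt of a splice site, the class they call proximal intron. They were chosen by that annotation alone and number 5778 of the 26351 peaks in 6 lists, or 21.9%, in 998 of the 1689 gene names that carried a peak. The remaining intron peaks of coding genes, 15337 in all, form the class of distal intron peaks and serve as the comparison. The cells were 22Rv1, a human prostate cancer line, grown for 40 h and then exposed for 4 h to 0.04% DMSO alone or to 20 µM of either SKBG-1(R) or SKBG-1(S), also with 0.04% DMSO. All were crosslinked with 400 mJ of ultraviolet light. The letters R and S name a pair of stereoisomers, ligands of NONO by the title of the study. Each treatment had 2 replicates, each with 1 immunoprecipitation and 1 input, so there were 12 libraries and 6 peak lists. The labels name no genotype for these libraries. Nothing in them tells whether replicates came from different cultures, so a p-value here reflects how these lists scatter and no more, and that scatter may be technical. NONO-knockout cells and RNA-seq, which the design text also names, are not analysed here.

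NONO is a nuclear protein of the DBHS family that works as a dimer with SFPQ or PSPC1, binds RNA through RRM domains, and is best known from paraspeckles and from its roles in transcription and pre-mRNA processing. An intron begins at the 5′ splice site, or donor, which is recognised by the U1 snRNP, and ends at the 3′ splice site, or acceptor. The first intron follows the exon that starts at the promoter, so that its donor end lies close to where transcription begins. In eCLIP a protein is fixed to RNA by ultraviolet light and pulled down, the RNA fragments are sequenced, and peaks are called against the input of the same cells. A peak reports RNA recovered with the protein, and its presence depends on how much of the transcript the cell makes. More binding per transcript and more transcript cannot be told apart from the peak lists.

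Sequences are shown for regions that recurred in at least 4 of the 6 lists, because such sites do not rest on 1 or 2 libraries. None of the regions found in all 6 lists lay in the sequence tables, and this set was chosen after the values were seen. Of the 170 such regions considered, 10 lay at least 95% inside a sequence that the reference tables hold, and 8 of them are printed. The regions of GRB10 (chr7:50792895-50793124, minus strand), ADARB1 (chr21:45074869-45074941, plus), SSBP2 (chr5:81750715-81750962, minus), DOCK1 (chr10:126905568-126905755, plus), CLOCK (chr4:55546008-55546117, minus) and PTBP3 (chr9:112333033-112333103, minus) come from the RefSeq promoter table of GRCh38.p14. Each lies in an intron of 1 transcript and within the window around an annotated gene start, which for the DOCK1 region is that of LOC124900289. The regions of the SCAMP4 and ADAT3 locus (chr19:1905531-1905693, plus) and of OAZ1 (chr19:2270869-2270951, plus) come from GENCODE 29 retained-intron transcripts. All 8 lie on the donor side of a first intron. Letters read 5′ to 3′ on the strand of the RNA, and capitals mark each match to GGGG, AGGGA or GAGGA, which may overlap.
GRB10: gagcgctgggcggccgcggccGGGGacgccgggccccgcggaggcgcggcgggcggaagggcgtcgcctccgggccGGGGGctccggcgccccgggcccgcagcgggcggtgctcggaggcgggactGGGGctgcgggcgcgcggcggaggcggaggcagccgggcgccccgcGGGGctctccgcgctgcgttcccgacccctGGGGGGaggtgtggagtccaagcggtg
ADARB1: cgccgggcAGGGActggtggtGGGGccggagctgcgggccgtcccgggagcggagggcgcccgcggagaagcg
SCAMP4 and ADAT3: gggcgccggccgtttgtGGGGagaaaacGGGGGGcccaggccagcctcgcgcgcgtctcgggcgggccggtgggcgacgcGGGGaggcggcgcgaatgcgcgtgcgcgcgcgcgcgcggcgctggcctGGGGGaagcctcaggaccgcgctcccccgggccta
SSBP2: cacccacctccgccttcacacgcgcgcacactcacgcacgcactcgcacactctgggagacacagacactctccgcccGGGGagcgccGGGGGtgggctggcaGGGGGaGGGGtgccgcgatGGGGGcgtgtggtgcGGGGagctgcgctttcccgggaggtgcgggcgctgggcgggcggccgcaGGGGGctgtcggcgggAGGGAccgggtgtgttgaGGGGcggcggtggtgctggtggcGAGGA
DOCK1: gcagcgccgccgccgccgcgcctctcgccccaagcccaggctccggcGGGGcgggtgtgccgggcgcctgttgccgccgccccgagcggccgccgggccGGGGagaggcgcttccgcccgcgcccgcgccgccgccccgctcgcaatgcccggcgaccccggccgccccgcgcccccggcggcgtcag
CLOCK: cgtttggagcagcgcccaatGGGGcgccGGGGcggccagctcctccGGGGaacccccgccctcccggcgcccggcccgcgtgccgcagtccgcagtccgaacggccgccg
OAZ1: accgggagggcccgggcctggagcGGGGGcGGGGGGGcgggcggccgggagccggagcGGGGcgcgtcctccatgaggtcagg
PTBP3: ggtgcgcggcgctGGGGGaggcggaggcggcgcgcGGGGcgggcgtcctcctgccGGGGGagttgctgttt

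The 10 regions with a sequence were rich in G and C. Their GC content ranged from 75.4% in the SSBP2 region to 87.2% in the DOCK1 region, and the median of all promoter windows of 138 nt in the RefSeq table was 58.0%. G alone made up 37.8% of the DOCK1 region and 56.6% of the printed OAZ1 region. A run of GGGG was found on the RNA strand in 10 of 10 regions, up to 12 times in SSBP2, and in 52.7% of the promoter windows. CCCC, its reverse complement, was found in 6 of 10 regions and in 51.6% of windows, and the U-rich run TTTTT in 0 of 10 regions and in 13.5% of windows. AGGGA and GAGGA were each found in 2 of 10 regions, against 21.1% and 21.8% of windows. These regions had their sequence in a table because they overlap a gene start or an exon of a listed transcript. Those transcripts were retained introns and, for the GRB10 region not printed, a transcript annotated for nonsense-mediated decay. The composition of the 10 regions thus describes them and not the class. Only 7.89% of the 5778 peaks had a sequence in the tables, so the GC and motif comparison of proximal with distal peaks was void.

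The proximal-intron peaks lay mostly just downstream of first exons. The peak centre was nearest to a donor in 95.2% of the 207 peaks of DMSO replicate 1 and in 92.5% of the 762 peaks of DMSO replicate 2. For SKBG-1(R) the share on the donor side was 96.3% of 738 peaks in replicate 1 and 82.4% of 2532 in replicate 2, and for SKBG-1(S) it was 94.8% of 439 and 94.4% of 1098, leaving out 2 peaks with no intron in the annotation. SKBG-1(R) replicate 2, the longest list, stood apart from the other 5, and its 95% Wilson interval of 80.9 to 83.8% did not meet theirs, the lowest of which began at 90.4%. Wilson intervals cover counting error only and take peaks as independent. In SKBG-1(R) replicate 2, 55.3% of proximal peaks sat at an intron end with 3 or more peaks, so its interval may be too narrow.

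First introns held 96.6% and 90.6% of the proximal peaks in the DMSO lists, 96.2% and 80.6% in the SKBG-1(R) lists, and 96.8% and 92.7% in the SKBG-1(S) lists. Of all the intron sequence within 500 nt of a splice site in the 1013 coding genes concerned, 12426 kb, only 22.7% belongs to first introns and 52.1% to the donor side. The donor side of first introns makes up 12.7% of that sequence and held 93.2, 85.3, 93.4, 71.8, 92.5 and 89.9% of the proximal peaks, in the order DMSO, SKBG-1(R), SKBG-1(S) with replicate 1 before 2. The share on the donor side was high within first introns too, 89.1 to 97.0%, where 55.8% of the sequence is on that side. In later introns it was 54.5% of 490 peaks in SKBG-1(R) replicate 2, beside 51.0% of the sequence, and 57.1 to 78.6% in the other lists, which had only 7 to 80 such peaks. Pooled over lists, 89.2% of placed peaks were on the donor side, and 94.5% without SKBG-1(R) replicate 2. When 1 transcript per gene stood for its annotation, the donor side held 73.9 to 91.1% and first introns 65.4 to 86.2% of the peaks of a list.

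**Figure D1:**
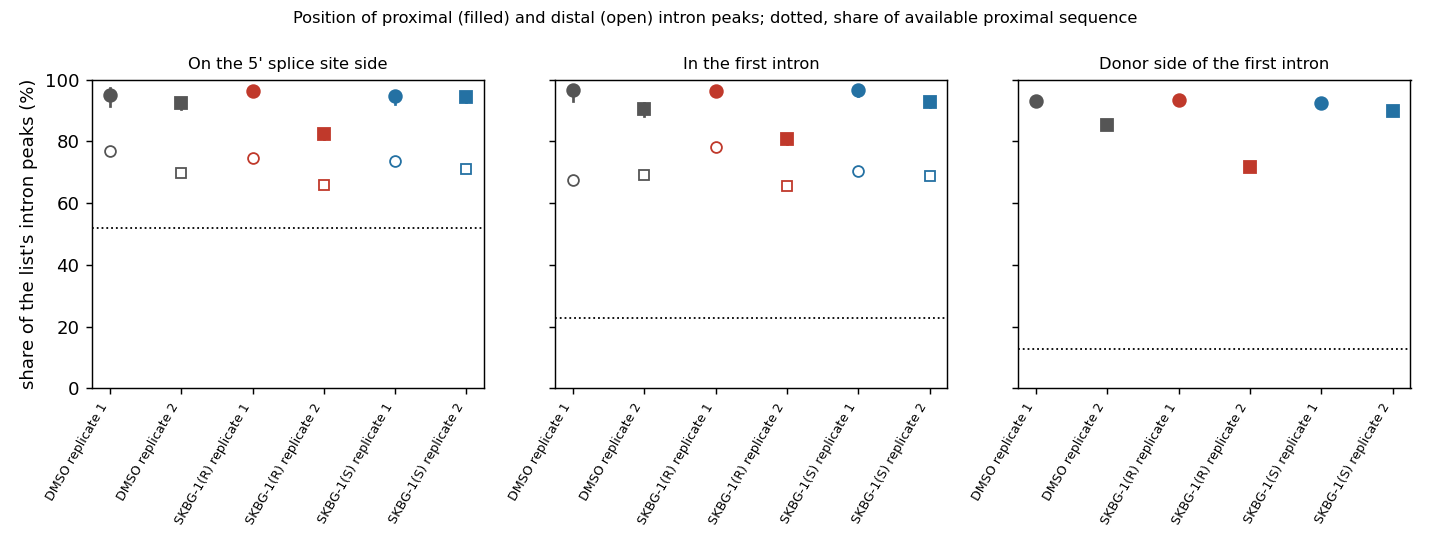
Share of each list's intron peaks (%) on the 5′ splice site side, in first introns, and on the donor side of first introns. Filled points are proximal peaks, with 95% Wilson intervals in the first 2 panels, and open points there are distal peaks of the same list, with colours for the treatment, circles for replicate 1 and squares for replicate 2. Dotted lines give the share of available proximal intron sequence at 52.1, 22.7 and 12.7%; each filled point is above its line, and SKBG-1(R) replicate 2 is the lowest in each panel.

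Distal intron peaks leaned the same way but less. Their share on the donor side was 65.9 to 77.0% and their share in first introns 65.5 to 78.1%. Proximal peaks exceeded distal peaks of the same list on the donor side by 20.5 points ± 2.66 (SD, n = 6 lists) and in first introns by 22.4 points ± 5.16 (SD, n = 6 lists), higher in 6 of 6 lists for both. The exact two-sided sign-flip test over the 6 lists gave p = 0.03125 for each, the smallest it can give. These 2 tests were added after the values were seen, and with the 3 planned ones the Benjamini-Hochberg adjusted exact p was 0.0781 for each, which misses 0.05.

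Along the intron, the first 50 nt after the donor held 5 to 77 peak centres a list, fewer than the next 50 nt in each list. In SKBG-1(R) replicate 1 they held 54, more than the 51 between 300 and 350 nt. Peaks that the authors assign to exons are not counted here, which can lower the numbers in the first 50 nt. The fullest bin of 50 nt lay between 50 and 150 nt in 5 lists and between 250 and 300 nt in DMSO replicate 2. The median distance from peak centre to splice site was 222 and 264 nt in DMSO, 214 and 254 nt after SKBG-1(R), and 210 and 246 nt after SKBG-1(S). It differed by -9.13 nt for SKBG-1(R) minus DMSO (-7.75 within replicate 1 and -10.5 within replicate 2), by -15.3 nt for SKBG-1(S) minus DMSO (-12.5 and -18.0) and by 6.13 nt for SKBG-1(R) minus SKBG-1(S) (4.75 and 7.50), each with an exact permutation p of 0.667. On the donor side the first 500 nt held 1.71 to 2.83 times as many intron peaks as the next 500 nt. On the acceptor side the ratio was 1.0 to 1.25, so peak numbers there were nearly level. The limit of 500 nt cut through this slope, and 260 of the 5778 peaks had their centre beyond it. Of these, 6 lay wholly beyond it, all in PTP4A1 and 3217 to 3585 nt from the nearest splice site in the transcripts used here. Between 400 and 500 nt the lists held 31 to 313 peaks and between 500 and 600 nt 28 to 310, with median log2 enrichments that differed by at most 0.10 within a list. The nearest start of a coding transcript upstream lay at a median of 384, 462, 382, 514, 390 and 434 nt in the 6 lists, in the same order as above, and 72.3 to 94.5% of proximal peaks were within 1000 nt of one. For distal peaks that median was 4187 to 10572 nt.

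**Figure D2:**
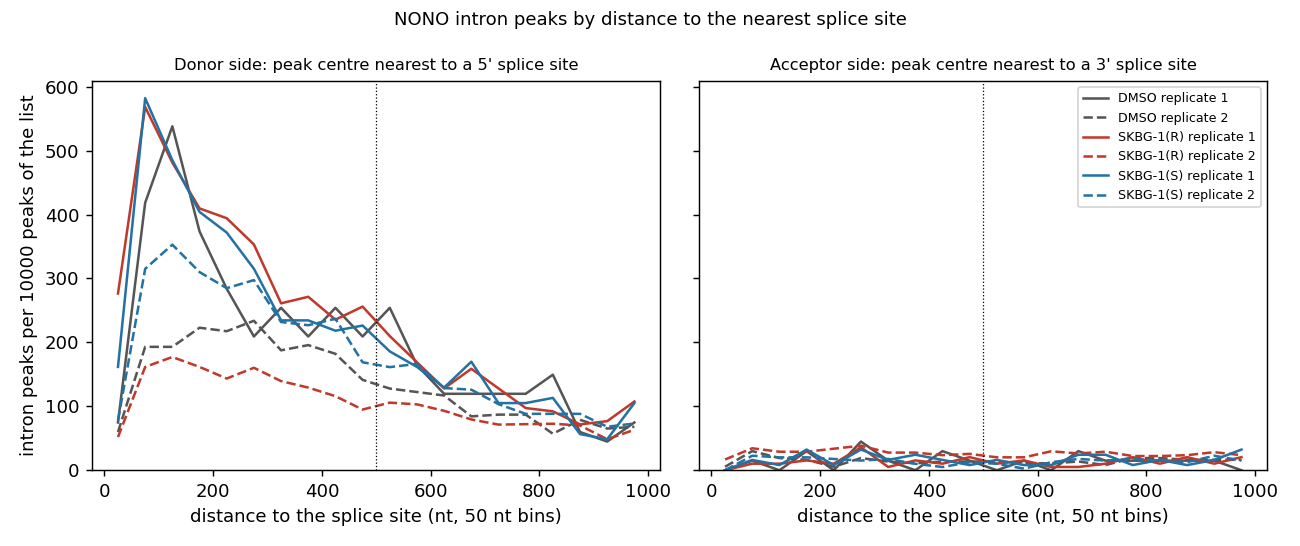
Intron peaks per 10000 peaks of the list (y) in 50 nt bins of distance from peak centre to the nearest splice site (x, nt), donor side on the left and acceptor side on the right, 1 line per list. The dotted line marks 500 nt; the donor side falls by a ratio of 1.71 to 2.83 from the first to the second 500 nt in the 6 lists, and the acceptor side is nearly flat.

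The introns bearing these peaks were long, with a median of 11364 nt in SKBG-1(R) replicate 2 and of 18452 to 30019 nt in the other lists. Of the 5778 peaks, 323 (5.59%) overlapped an annotated exon. Peaks that the authors assign to exons are in other classes, so the choice of class keeps this share low. The class also depends on the transcript chosen, since 3108 peaks (53.8%) lie farther than 500 nt from a splice site in another transcript of their gene. A peak spanned 70 nt at the median (range 2 to 242 nt). Its log2 enrichment over input, the authors' value, was 3.69 at the median with a range of 3.00 to 6.70. Within lists, the median log2 enrichment of proximal peaks differed from that of distal peaks by -0.003 ± 0.04 (SD, n = 6 lists), with an exact sign-flip p of 0.9375. That difference was 0.06 under stricter limits (log2 enrichment of at least 4 and −log10 p of at least 5) and -0.10 in lists reduced to the 669 peaks with the strongest p, each with an exact p of 0.0625. Proximal peaks were wider by 2.58 nt ± 2.01 (SD, n = 6 lists; wider in 5 lists and equal in 1), with an exact p of 0.0625 and an adjusted p of 0.141, and by 1.33 and 1.42 nt under these 2 settings (exact p of 0.4375 and 0.34375).

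Agreement between replicates was partial. Of the proximal peaks of DMSO replicate 1, 33.3% overlapped a peak of DMSO replicate 2 by at least 1 nt on the same strand, and 10.1% in the other direction. The shares were 56.5% and 18.7% for SKBG-1(R) and 55.6% and 23.7% for SKBG-1(S). DMSO replicate 1 shared more with the replicate 1 lists of the other treatments, 70.0% with SKBG-1(R) and 74.9% with SKBG-1(S), than with its own replicate. It also shared more with their replicate 2 lists, 60.9% and 55.6%. Proximal peaks overlapped the other replicate more often than distal peaks by 5.17 points ± 5.94 (SD, n = 6 lists), in 5 of 6 lists, with an exact sign-flip p of 0.09375 and an adjusted p of 0.141. The difference was 1.25 points under stricter limits (exact p of 0.65625) and 8.63 points in lists of equal size (exact p of 0.15625). Merging all peaks that share 1 nt gave 2802 regions made only of proximal-intron peaks. Of these, 1955 (69.8%) came from 1 list and 22 (0.785%) from all 6. Among regions with no proximal peak, 58 of 13474 (0.430%) came from all 6 lists.

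The 22 regions found in every list fell in 21 genes, all in first introns and 21 of them on the donor side. NFIX, a transcription factor, had the strongest by its weakest list, at chr19:12995870-12996254 in the first intron. The region's highest log2 enrichment was 4.66 and 5.78 in the DMSO lists, 4.50 and 6.30 in the SKBG-1(R) lists, and 4.47 and 5.69 in the SKBG-1(S) lists. Replicate 2 was above replicate 1 in each treatment, and the treatments overlapped. The zinc finger gene ZNF787 (chr19:56120739-56121091) varied least of these, from 3.93 to 4.42. DOCK1, an activator of the small GTPase RAC, held 2 regions at chr10:126905987-126906054 and chr10:126905787-126905910, the second with the highest value of all, 6.70 in SKBG-1(R) replicate 2. DIDO1 (chr20:62926041-62926291), the splicing regulator HNRNPF (chr10:43407340-43407504) and QSER1 (chr11:32893746-32893917) completed the regions described, with weakest lists at 3.71, 3.64 and 3.57. These are first-intron regions with their strongest peak 284.5 to 456.5 nt from the donor. Coordinates are GRCh38.

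**Figure D3:**
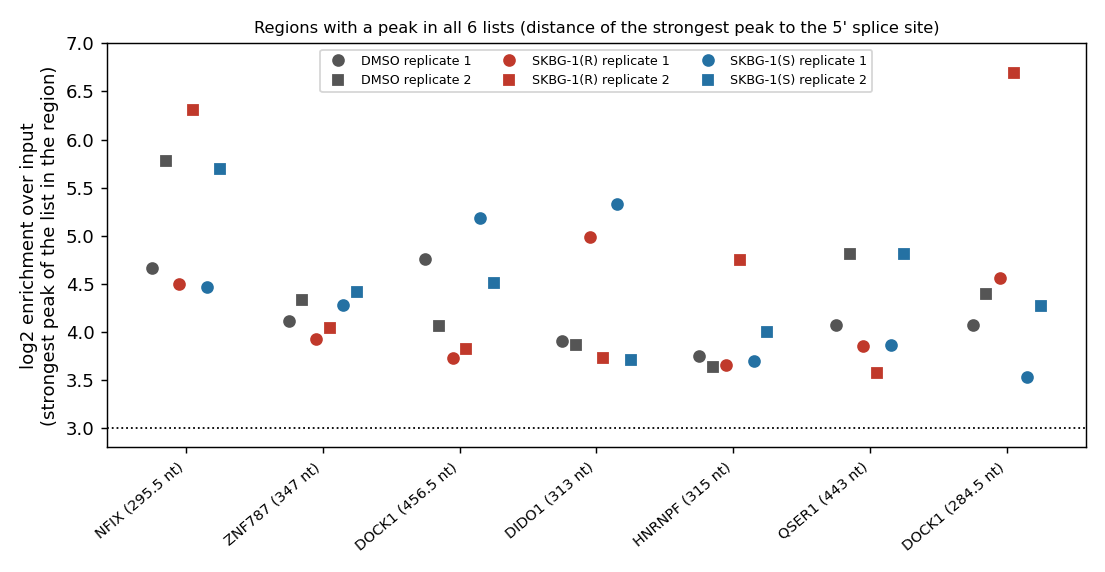
Log2 enrichment over input (y) of the strongest peak of each list in 7 of the 8 regions present in all 6 lists with the highest weakest value (x, gene and distance of the strongest peak from the 5′ splice site). Colours give the treatment, circles replicate 1, squares replicate 2, and the dotted line the deposited minimum of 3; NFIX has the highest weakest value, 4.47, and in ZNF787 the 6 lists lie between 3.93 and 4.42.

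Peaks at 1605 intron ends were spread unevenly over genes. At 926 ends a peak was seen in 1 list, and 47 ends had a peak in all 6 lists, 45 of them donor ends and all 47 in first introns. Without SKBG-1(R) replicate 2, 52 ends had a peak in each of the other 5 lists. Of the 998 genes, 52 had a proximal peak in all 6 lists, 447 in 1 list, and 320 held a single peak. Within a list, 30.4 to 55.3% of proximal peaks sat at an end with 3 or more peaks, so neighbouring peaks are not independent sites.

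AMD1, which makes the decarboxylated donor used for polyamine synthesis, had the highest mean density of proximal peaks, 47.0 per 10000 peaks of a list. It had 6 and 5 peaks in the DMSO lists, 11 and 5 after SKBG-1(R), and 11 and 12 after SKBG-1(S). Counts by list, here and below, are not scaled to list length. The lists held 669 and 3678 peaks for DMSO, 1953 and 14847 for SKBG-1(R), and 1237 and 3967 for SKBG-1(S). OAZ1, the antizyme that restrains polyamine synthesis, had 5 and 1, 5 and 5, and 8 and 0. Chromatin regulators came next. ANKRD11, a partner of histone deacetylases, had 2 and 2 peaks after DMSO, 14 and 29 after SKBG-1(R), and 7 and 15 after SKBG-1(S). The histone methyltransferase gene NSD2 had 6 and 0, 11 and 11, and 5 and 6. EHMT1, another histone methyltransferase, had 5 and 12 in DMSO, 3 and 7 after SKBG-1(R), and 8 and 5 after SKBG-1(S). Of transcription factors, CUX1 had 40 proximal peaks, NFIX 51 and PKNOX1 35 over the 6 lists. CCND1, a D-type cyclin, had 3 and 5 peaks after DMSO, 10 and 28 after SKBG-1(R), and 5 and 0 after SKBG-1(S). ATXN2, an RNA-binding protein, had 55 in all, and the glycosyltransferase gene GALNT7 32. Proximal introns held 87.7% of the peaks of AMD1 and 84.8% of those of NSD2, but 15.0% of those of ANKRD11 and 18.6% of those of NFIX.

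**Figure D4:**
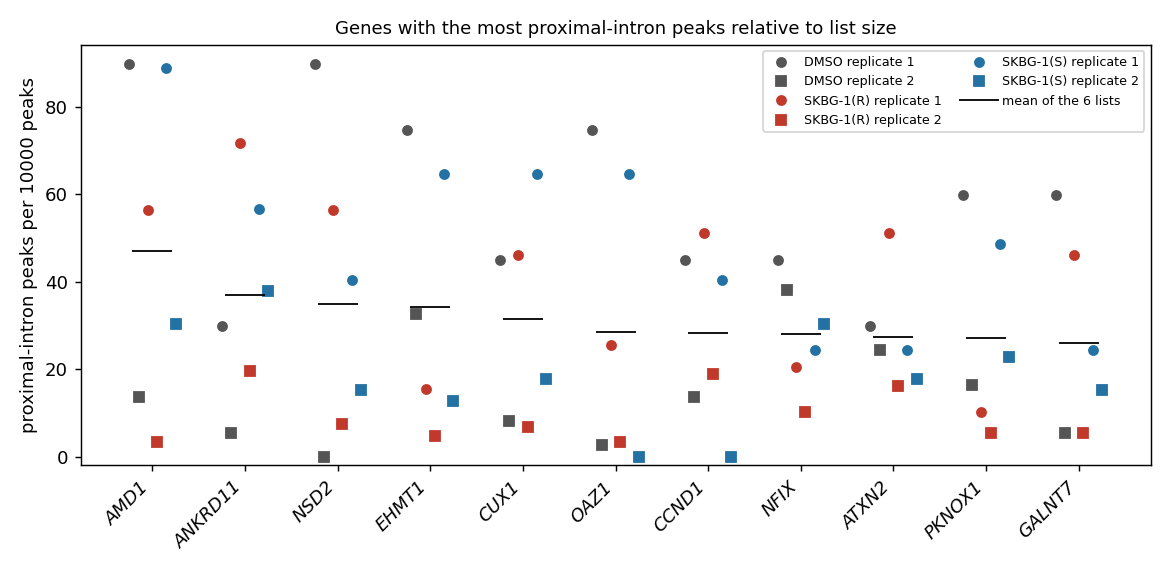
Proximal-intron peaks per 10000 peaks of the list (y) for 11 of the 12 genes with the highest mean over the 6 lists (x), 1 point per list with colours for treatment, circles for replicate 1 and squares for replicate 2, and a bar at the mean. AMD1 is highest at 47.0, and the replicate 1 lists, which are shorter, are above the replicate 2 lists for most genes.

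The single intron ends with the highest densities were donors of first introns. NSD2 led at 34.8 peaks per 10000, with 6 and 0 peaks after DMSO, 11 and 11 after SKBG-1(R), and 5 and 6 after SKBG-1(S). AMD1 followed at 32.5, ANKRD11 at 31.6, PKNOX1 at 27.2, CUX1 at 26.3, GALNT7 at 26.0, SSBP2 at 25.2 and NFIX at 24.6. At the donor of the AMD1 first intron each list held 4 to 8 peaks. SSBP2, whose sequence is printed above, had 4 and 0 peaks after DMSO, 6 and 3 after SKBG-1(R), and 6 and 4 after SKBG-1(S).

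By gene group, 982 of 19698 coding gene names (4.99%) had a proximal peak in any list. That base includes genes with no peak of any class. Of the 1689 gene names with a peak of any class, 998 had a proximal peak. Members with a peak of any class numbered 25, 15, 20, 8, 10, 4, 9, 13, 8 and 11, in the order of the groups below. The groups were chosen with earlier results of these data known, and their counts, not scaled to list length, are descriptions. Regulators of histone methylation and deacetylation had 21 of 47 members with a proximal peak, with the most peaks in ANKRD11, the corepressor gene CTBP1 (1 and 5, 2 and 39, and 6 and 6), GSE1 (1 and 11, 0 and 30, and 3 and 6) and EHMT1. Subunits of NuRD, SWI/SNF and related remodellers had 12 of 34, among them GATAD2A with 0 and 1, 7 and 8, and 1 and 2 peaks, then ARID1A (3 and 0, 3 and 3, and 4 and 2) and ZFPM1. Transcription factors had 17 of 40, with NFIC and E2F3 next after NFIX and CUX1. Genes of paraspeckle proteins had 7 of 24, with DAZAP1 at 2 and 0, 2 and 17, and 2 and 6 peaks, then RBM14, SS18L1 and MATR3. NONO, SFPQ and PSPC1 were not among them. Splicing factors had 6 of 42, with HNRNPF in all 6 lists (2 and 6, 2 and 8, 2 and 4 peaks) and SRPK2, PTBP1 and PTBP3 after it. Cell cycle genes had 4 of 28, and after CCND1 and E2F3 these were CDKN2A and CDKN1A, both with peaks in SKBG-1(R) replicate 2 alone. TGF-beta genes had 5 of 21, with PMEPA1, a feedback inhibitor, at 2 and 10, 3 and 25, and 2 and 6 peaks, and SMAD1, SKI and BMPR1A below it. Per 10000 peaks of a list, PMEPA1 had 29.9 and 27.2 in DMSO, 15.4 and 16.8 after SKBG-1(R), and 16.2 and 15.1 after SKBG-1(S). The 29.9 rests on 2 peaks in a list of 669. In the limma test described below, PMEPA1 was not called in either comparison with DMSO. For SKBG-1(S) its log2 difference was -0.71 with an interval of -2.88 to 1.46 and an unadjusted limma p of 0.506. Under stricter limits that difference was 0.51. Cytoskeletal genes had 10 of 28, led by PLEC (0 and 11, 0 and 21, and 0 and 1), SEPT9 and MAP4. Stress genes had 8 of 31, led by TRIB3, SLC7A5, SLC7A1 and CARS. Prostate genes had 9 of 26, with ZBTB16, FKBP5 (1 and 1, 3 and 0, and 3 and 3) and NCOA2 after PMEPA1. Of 9 marker genes of the cell line, 2 had a proximal peak and 3 a peak of any class. TMPRSS2 had 2 proximal peaks, and KLK2, KLK3, FOXA1, HOXB13 and FOLH1 had no peak of any class. Without a peak, low RNA and no binding cannot be told apart. None of the 22 markers of other cell types had a proximal peak.

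The comparison of treatments asks whether either stereoisomer changed these peaks. The share of a list's peaks in the class was 30.9% and 20.7% in DMSO, 37.8% and 17.1% after SKBG-1(R), and 35.5% and 27.7% after SKBG-1(S). Replicate 1 was the higher in every treatment, and at full list length the treatments overlapped. SKBG-1(R) minus DMSO was 1.59 points (6.85 within replicate 1 and -3.66 within replicate 2), with an exact permutation p of 1. SKBG-1(S) minus DMSO was 5.77 points (4.55 and 6.99), with an exact permutation p of 0.667. SKBG-1(R) minus SKBG-1(S) was -4.17 points (2.30 and -10.6), with an exact permutation p of 1. Tests of 2 lists against 2 cannot go below 0.333, and all 15 such comparisons, which also covered the donor side, first introns, distance and enrichment, had an adjusted p of 1. Leaving out 1 list turned the sign of 2 of these 3 differences in share. The third, SKBG-1(S) minus DMSO, ranged from 0.655 points without DMSO replicate 2 to 10.9 points. In lists of equal size the share was 38.7% and 33.9% after SKBG-1(S) and 30.9% and 25.1% in DMSO. Both SKBG-1(S) lists were then above both DMSO lists, with an exact permutation p of 0.333. SKBG-1(R), at 46.8% and 18.8%, still overlapped both. How far the cut to equal size gave this separation was not tested.

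At full list length, enrichment came nearest to separating the groups. This was not particular to the class as far as DMSO goes. In distal intron peaks the SKBG-1(R) medians, 3.75 and 3.77, were also above those of DMSO, 3.69 and 3.59. Distal peaks of SKBG-1(S) had medians of 3.78 and 3.64. The median log2 enrichment of proximal peaks was 3.80 and 3.75 after SKBG-1(R), 3.73 and 3.59 in DMSO, and 3.73 and 3.60 after SKBG-1(S), so that both SKBG-1(R) lists were above the other 4. SKBG-1(R) exceeded DMSO by 0.11 (0.07 within replicate 1 and 0.15 within replicate 2) and SKBG-1(S) by 0.11 (0.07 and 0.14), each with an exact permutation p of 0.333. Leaving out 1 list gave 0.04 to 0.18 for the first and 0.04 to 0.17 for the second. In lists of equal size the 2 differences were 0.50 and 0.26, and under stricter limits they were 0.01 and 0.00. SKBG-1(S) differed from DMSO by 0.00, and by 0.24 in lists of equal size. Cutting lists to equal size left DMSO replicate 1, the shortest, unchanged at 3.73. It removed the peaks with the weakest p from each longer list. How far that cut gave the 0.50, 0.26 and 0.24 was not tested.

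For single genes no difference passed the test. Of 531 pairs of a gene and a region class with at least 10 peaks, 179 were proximal-intron pairs, holding 3455 of the 5778 peaks. limma on log2 peaks per 10000 with a prior count of 2 called 0 of the 179 in SKBG-1(R) against DMSO, 0 in SKBG-1(S) against DMSO, and 0 in SKBG-1(R) against SKBG-1(S), at a Benjamini-Hochberg adjusted p of 0.05. Among all 531 pairs 0.188% were called in the first comparison, 0% in the second and 0% in the third. At an unadjusted limma p under 0.05 the proximal pairs numbered 0, 1 (0.559%) and 0. Over all 531 pairs they numbered 14 (2.64%), 2 (0.377%) and 5 (0.942%). The smallest adjusted limma p of a proximal pair was 0.988, 1 and 0.991. The median 95% interval extended 2.21 log2 units to either side, so differences below that size were not detectable for a typical gene. The median log2 difference of the proximal pairs was 0.18, 0.28 and -0.25, beside 0.20, 0.09 and -0.07 over all pairs, and with no scaling to list size it was 0.90, 0.29 and 0.45 beside 1.0, 0.18 and 0.71, so the last changed sign (TMM scaling gave 0.41, 0.19 and 0.07 beside 0.46, 0.04 and 0.32). Without SKBG-1(R) replicate 2 only 83 proximal pairs reached 10 peaks, so many of the 179 entered through that list. The medians that involve SKBG-1(R) thus describe genes chosen in part by 1 of its lists. Without that list the medians were 0.27, 0.13 and 0.18, beside 0.05, 0.06 and -0.13 over all pairs.

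TRIB3, a pseudokinase gene induced by amino acid and ER stress, was the 1 proximal gene under an unadjusted p of 0.05. It had 0 and 1 proximal peaks in the DMSO lists, 7 and 10 after SKBG-1(R), and 7 and 5 after SKBG-1(S), so both lists of each compound were above both DMSO lists. On the log2 scale with the prior count, SKBG-1(S) exceeded DMSO by 2.49 ± 1.13 (SE), with a limma p of 0.0365 and an adjusted p of 1. SKBG-1(R) exceeded DMSO by 1.89 ± 1.13 (SE), with an adjusted limma p of 0.988. Both contrasts share the DMSO lists. SLC7A1, a cationic amino acid transporter of the same stress group, had 0 and 0 peaks after DMSO, 4 and 2 after SKBG-1(R), and 3 and 2 after SKBG-1(S). CARS, a tRNA synthetase gene, had 0 and 0, 2 and 3, and 1 and 3. SLC7A5, an amino acid transporter of the same group, had 0 and 2, 0 and 8, and 1 and 1, so its groups overlapped. The DMSO lists are 669 and 3678 peaks long, and whether more RNA of these genes or more NONO on it gave the peaks was not tested.

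In SKBG-1(R) against DMSO, the pairs with the smallest p on the higher side began with UNKL, at 0 and 2 peaks after DMSO and 7 and 23 after SKBG-1(R), a log2 difference of 2.08 with a 95% interval of -0.20 to 4.36. TRIB3 and the NuRD gene GATAD2A (0 and 1 to 7 and 8) followed, then PISD, MTMR3, MICAL3, SRPK2, SLC7A1, ARHGEF2 and CHD7, at 1.18 to 1.55. On the lower side EHMT1 stood first, 74.7 and 32.6 peaks per 10000 in DMSO and 15.4 and 4.71 after SKBG-1(R), a log2 difference of -2.0 with an interval of -4.27 to 0.27. PKNOX1, BCOR, GPR35, YWHAZ, ZBTB1, NFIX, ADARB1, DPP10 and GSE1 lay at -1.24 to -1.60, of which ADARB1, GSE1 and NFIX were above 0 when lists were not scaled. The direction of each of these 20 is shared by both same-numbered pairs, as the choice required.

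In SKBG-1(S) against DMSO, GRB10, an adaptor that dampens insulin receptor signalling, came after TRIB3 with 0 and 3 peaks after DMSO and 7 and 6 after SKBG-1(S), a log2 difference of 2.19 with an interval of -0.14 to 4.52. UNKL, SLC7A1, KCMF1, JADE1, ACTN4, ARHGEF2, ZBTB2 and PTPRN2 followed at 1.44 to 1.93. The lower side was closer to 0, from ZMYND11 at -1.08, IQSEC2 at -1.07 and CCND1 at -1.06 to NFIX at -0.54, with DPP10, R3HDM2, PMEPA1, EHMT1, HNRNPF and GNB1 between.

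At the matched 20 µM and 4 h the stereoisomers did not differ in any proximal-intron gene past the threshold, and 179 genes were compared. Among genes that moved alike in both pairs, ZBTB1 had the smallest p, at 0 and 3 peaks after SKBG-1(R) and 2 and 4 after SKBG-1(S), a log2 difference of -1.67 with an interval of -3.86 to 0.52 and an adjusted limma p of 0.991. CCND1 had the largest difference of those on the higher side, 10 and 28 against 5 and 0 peaks, a log2 difference of 1.34 with an interval of -1.10 to 3.77, and without SKBG-1(S) replicate 2 it was -0.32. AGAP3, NCOA2, KIF2A, AGPAT3, PHF2, GATAD2A, STRBP, PACSIN2 and SCARB1 were at 0.63 to 1.31, and PKNOX1, LZTS2, EZH2, YWHAZ, ADARB1, PPP3CA, ZBTB7A, TRAF2 and GPR35 at -1.36 to -1.65. The intervals of the 10 genes above 0 reached 2.66 to 3.77 at their upper end and those of the 10 below 0 reached -3.61 to -3.88 at their lower end. An adjusted p that misses the threshold does not show that the 2 compounds act alike.

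**Figure D5:**
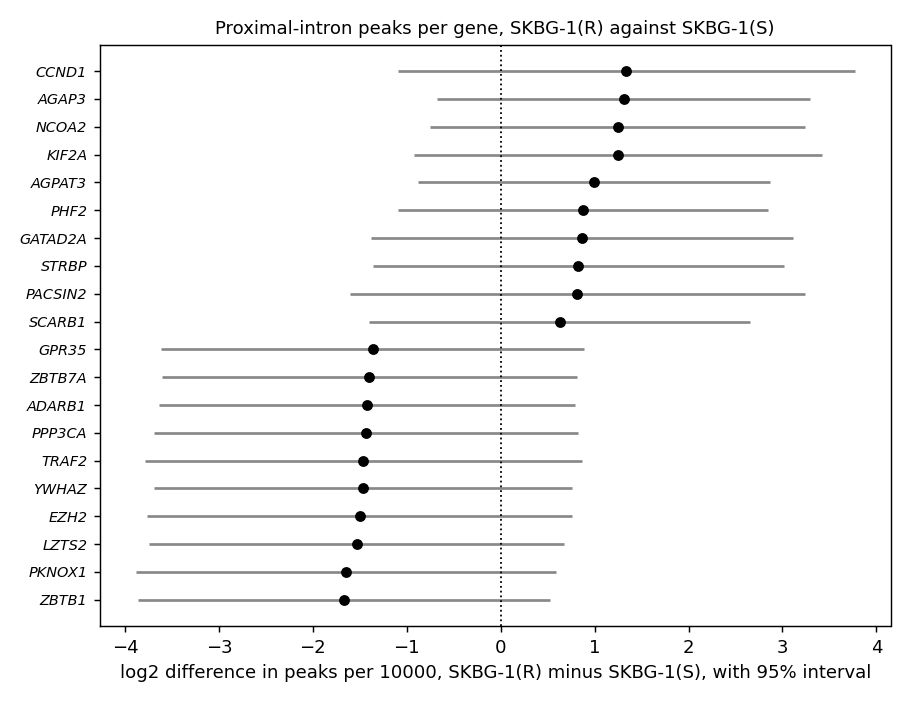
Log2 difference in proximal-intron peaks per 10000, SKBG-1(R) minus SKBG-1(S) (x), with 95% intervals from limma, for 20 genes (y), 10 on each side of 0, chosen by p among those that moved alike in both same-numbered pairs. Each of the 20 intervals spans 0.

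Some regions were found in both lists of 1 treatment and nowhere else. Of the 2802 proximal-intron regions there were 34 (1.21%) for SKBG-1(R), 6 (0.214%) for SKBG-1(S) and 0 for DMSO. Of the 13474 regions with no proximal peak there were 99 (0.735%), 12 (0.0891%) and 3 (0.0223%). The 3 replicate 2 lists alone held 105 of the proximal-intron regions (3.75%) and 3.08% of the others, and the 3 replicate 1 lists alone held 10 (0.357%) and 0.141%. The lists differ in length, 1953 and 14847 peaks for SKBG-1(R) against 669 and 3678 for DMSO, and the part of this in the counts was not tested. For SKBG-1(R) the strongest included 2 regions in intron 4 of CCND1 (chr11:69650897-69650965, near the acceptor, 4.26 and 4.4; chr11:69648390-69648491, near the donor, 4.26 and 4.09) and 1 in the lipid acyltransferase gene AGPAT3 (chr21:43865489-43865617, 4.12 and 4.57). For SKBG-1(S) they were 2 in intron 3 of the phosphatase gene PTP4A1 (chr6:63572813-63572891, 3.76 and 3.64; chr6:63573170-63573247, 3.84 and 3.52), both farther than 500 nt from either splice site as described above, 1 in PTPRN2 (chr7:158587422-158587506, 4.09 and 3.60) and 1 in HDLBP (chr2:241314968-241315059, 4.05 and 3.39). A further 17 regions (0.607%, beside 0.193% of the regions with no proximal peak) were in all 4 compound lists and neither DMSO list. They were singled out after the values were seen, and the part of list length in this count was not tested either. The 17 included TRIB3, ANKRD11, and the CLOCK and PTBP3 regions printed above. The TRIB3 region (chr20:381675-381961, first intron) reached a log2 enrichment of 6.23 and 4.26 after SKBG-1(R) and of 4.45 and 3.48 after SKBG-1(S).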

How the data were processed

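NONO eCLIP was analysed from 6 deposited peak lists, 1 list per replicate with its input as control. The submitters' processing notes list cutadapt 1.9, STAR 2.4.0i and the builds hg19, hg38 and GRCh38. The peak caller is not given in the sources used here. GENCODE 29 places 9797 of the 9850 transcripts named in the lists (99.5%) at the listed coordinates to within 1 nt, so positions are GRCh38. The values the authors deposited for each peak are a −log10 p (at least 3, limited to 400) and a log2 enrichment over input (at least 3). They describe peaks within a list. Read depth is unknown, and the 669 to 14847 peaks of a list limit the precision.

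Peak centres were placed at the nearest splice site over all protein-coding transcripts of their gene with Python 3.11.15 and pandas 2.3.3; 2 of 5778 could not be placed and 66 carried joint gene names. Group values were compared by exact permutation of 2 lists against 2, and proximal with distal peaks by an exact sign-flip test over 6 lists. Genes were tested with limma 3.58.1 (trend, all 6 lists in 1 fit, peaks per 10000 with a prior count of 2, at least 10 peaks). The code was run on simulated lists with Poisson counts and planted changes. Those lists did not vary between replicates beyond counting, so that run does not show how the test performs on the real lists. Named genes are the 12 densest, the 10 higher and 10 lower per contrast with the smallest limma p and 1 direction in both same-numbered pairs, the 4 of each gene list with the most proximal peaks (fewer at ties), the 8 densest intron ends, the 8 regions in all 6 lists with the highest weakest value and the 4 such regions of each group. The members and lists were chosen with earlier results of these data known. Some genes that these rules name are not reported here.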

Additional observations from a re-analysis of the deposited data

How the results depend on the processing

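Every group difference per list rests on 2 lists a treatment, and leaving out 1 list turned the sign of many of them. Over these omissions the difference in the share of peaks in the class ranged from -8.77 to 12 points for SKBG-1(R) minus DMSO and from -14.5 to 6.19 for SKBG-1(R) minus SKBG-1(S). The donor-side share ranged from -11.5 to 2.5, from -0.57 to 2.08 and from -12.2 to 1.74 points for SKBG-1(R) minus DMSO, SKBG-1(S) minus DMSO and SKBG-1(R) minus SKBG-1(S), and the first-intron share from -12.9 to 2.62, from -1.86 to 4.21 and from -14.1 to 1.44 points. The median distance ranged from -30.1 to 11.9, from -36.3 to 5.75 and from -13.5 to 25.8 nt, and SKBG-1(R) minus SKBG-1(S) was -19.0 nt under stricter limits and -16.3 nt with 1 transcript per gene, against 6.13 nt. The median enrichment of SKBG-1(S) minus DMSO ranged from -0.068 to 0.073, and was -0.0085 with touching peaks merged. Proximal minus distal enrichment was 0.064 under stricter limits, -0.10 in lists of equal size and ranged from -0.015 to 0.0069 over the omissions of 1 list. The cause was not tested.

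Without SKBG-1(R) replicate 1, limma called 5 proximal genes in SKBG-1(R) against DMSO and 5 against SKBG-1(S), and 0 in each other omission, so the range was 0 to 5. In both contrasts that was 3.65% of 137 proximal pairs tested, beside 26 of all 460 pairs (5.65%). The 5 genes, BAIAP2, RAMP1, SLC12A7, SLC38A10 and TMEM179, held 13 to 17 peaks, each from SKBG-1(R) replicate 2, and 0 from the other 5 lists; the lone list is then assumed to vary like the other groups. The smallest adjusted p of a proximal pair in SKBG-1(R) against DMSO was 4.70e-05 there and 0.569 to 0.998 under the other alternatives. In the replicate block, which compares lists of the same number, limma called 0 proximal genes in each contrast, with a smallest adjusted p of 0.569, 1 and 0.705. Same-numbered lists deviated together over 531 pairs (correlations of 0.55, 0.59 and 0.45), but the labels do not say that a number marks a shared batch. The mean of same-numbered differences equals the difference of group means, so per-list values such as 1.59, 5.77 and -4.17 points for the share in the class are the same by construction.

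Of 60 gene results, 12 changed sign under an alternative: without scaling, SKBG-1(R) minus DMSO was 0.13 for ADARB1, 0.36 for GSE1 and 0.18 for NFIX; under stricter limits, SKBG-1(S) minus DMSO was 0.48 for HNRNPF and 0.51 for PMEPA1; over the omissions of 1 list, SKBG-1(S) minus DMSO ranged from -2.88 to 0.59 for CCND1, from -1.69 to 0.35 for EHMT1 and from -1.44 to 0.21 for GNB1, and SKBG-1(R) minus SKBG-1(S) from -0.32 to 3.16 for CCND1, from -0.28 to 2.03 for PACSIN2, from -0.11 to 1.48 for SCARB1 and from -0.15 to 1.55 for GATAD2A. The sign turned without SKBG-1(S) replicate 2, and for GATAD2A without SKBG-1(R) replicate 1. Requiring 20 nt for peaks to join moved the regions found in all 6 lists from 22 to 26. The alternatives for GC content and motifs (the central 50 nt) were not run, since too few peaks had a sequence. Without SKBG-1(R) replicate 2 the class held 3245 peaks in 738 genes.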
